A study of Mus musculus with 6 samples.

Results

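The genes described here encode 48 proteins of the extracellular matrix and cell surface other than collagens: proteoglycans, fibulins, fibrillins, elastin, thrombospondins and related matrix glycoproteins. They were taken by name and sorted into 7 classes by protein family, and all 48 were found among the 24062 genes counted. The rule that lists them uses no measured value, but the members were chosen with earlier results of these data known. RNA was sequenced from sorted cells of the dorsal pancreatic bud of mouse embryos in 6 libraries, each a pool of sorted fractions and the only one of its group. Epithelium was sorted at embryonic day (E) 12.5 and at E14.5 and mesenchyme at E12.5, and each came from control embryos and, separately, from embryos labelled as Pbx mutants. Control embryos are labelled mTmG, a reporter whose cells are red (Tomato) until Cre recombinase turns them green (GFP), and no Cre is named for them. The mutant genotype is given here in part and is not that of a Pbx2 heterozygote alone: it includes 1 copy each of mTmG and Nkx2.5-Cre (Cre driven by the Nkx2-5 locus) and a single mutant copy of Pbx2, a homeodomain partner of Hox and Meis factors. The mTmG reporter is thus common to all groups. The labels do not say which colour marks which fraction, how green cells were obtained from the control genotype, or how many embryos each pool holds. No age other than the embryonic day is given.

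The matrix of a young organ is laid down mostly by its mesenchyme and is read by the epithelium through integrins and other receptors. Fibronectin fibrils form first and serve as a template on which fibrillins build microfibrils, and tropoelastin with the help of fibulins is then deposited on the microfibrils as elastic fibres. Proteoglycans carry glycosaminoglycan chains: the lecticans bind hyaluronan and swell the space between cells, the small leucine-rich proteoglycans coat collagen fibrils, and the glypicans and syndecans at the cell surface bind Wnt, Hedgehog, fibroblast growth factor and bone morphogenetic protein ligands. Matricellular proteins such as tenascins, thrombospondins and periostin add little strength and change how cells attach. In the pancreatic bud, branching and the growth of progenitors depend on the surrounding mesenchyme and its matrix.

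Levels are given in CPM, that is counts relative to the library total, scaled by the trimmed mean of M-values (TMM) and rest on 14032569 to 20276045 counts on genes per library. With 1 library per group there is no replicate check, no test across samples and no p-value. Each ratio compares 2 libraries, and the range in brackets after it is an exact 95% interval that covers counting error only. A gene at or above 5 CPM in either library of a comparison was measured in it. It was called when the libraries differed 2-fold or more and 1 lay outside the interval. In every list of values below, the control library of a pair comes first and the library labelled mutant second. Pbx2 stood at 89.9 and 56 CPM in mesenchyme, 54.5 and 49.7 CPM in E12.5 epithelium and 34 and 47.3 CPM in E14.5 epithelium. Pbx2 RNA thus does not show the loss of 1 copy in the epithelial libraries, which are called libraries labelled mutant. The part of each pool's cell mixture in these Pbx2 values was not tested. The fraction labels were checked against markers: 20 epithelial markers summed to 4004 and 3429 CPM in E12.5 epithelium, 129 and 109 CPM in E12.5 mesenchyme and 7350.4 and 3945 CPM in E14.5 epithelium, and 26 general mesenchymal markers to 6727 and 7927 CPM in E12.5 epithelium, 15353 and 13872 CPM in E12.5 mesenchyme and 6532 and 12988 CPM in E14.5 epithelium. Epithelial markers were far lower in mesenchyme, whereas mesenchymal markers were present in every epithelial library. In pooled cells, fewer cells of a type and less RNA per cell cannot be told apart.

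Genes of this matrix were expressed in both fractions, and most of the genotype calls fell in the epithelial fraction at E14.5. There, 17 of 45 measured members were called higher in the library labelled mutant and 2 lower, where 9.64% of all measured genes were called higher and 6.4% lower. General mesenchymal markers moved the same way, with 20 of 25 called higher in that library, and relative to their median 1 member was called higher and 13 lower. That scaling lowers the log2 ratio of every gene in this pair by 1.37, from a median of -0.03 over all measured genes. Counts relative to these markers, here and below, have no share over all genes beside them. In E12.5 mesenchyme, 1 of 40 measured members was called higher in the mutant and 4 lower, against 1.96% and 3.5% of all measured genes. In E12.5 epithelium, 0 of 44 were called higher and 4 lower, against 1.79% and 3.21%. Between fractions at E12.5, 8 of 44 members were called higher in control mesenchyme than in control epithelium and 8 lower, against 7% and 13.6%. Among libraries labelled mutant, 6 of 42 were called higher in mesenchyme and 10 lower, against 5.42% and 12.9%. Between E14.5 and E12.5, 5 of 45 were called higher in control epithelium and 14 lower, against 6.53% and 11.2%, and in epithelium labelled mutant 12 of 44 were higher and 4 lower, against 6.27% and 5.89%. Of the 48 members, 37 reached 5 CPM in every library and 3 (Tnxb, Bcan and Prelp) in none, so these 3 were measured in no comparison. In all, 11 members were called in no comparison.

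Promoter sequence is shown for 4 members on which the results turn: Postn, the member called higher in mutant mesenchyme; Tnc, which had no read in 1 library; Acan, which was near 0 in both mesenchyme libraries; and Emilin1, the member with the widest excess in control mesenchyme. RefSeq promoters (GRCm38.p6) were given for 34 of the 48 members, with 44 listed starts. Each line holds the 250 bases before a listed start, read 5′ to 3′ on the gene's strand. Capitals mark on either strand TATAAA, the motif bound by the general factor TBP, and GGGCGG, the core of sites for Sp factors.
Postn, chr3:54360857-54361106, plus strand: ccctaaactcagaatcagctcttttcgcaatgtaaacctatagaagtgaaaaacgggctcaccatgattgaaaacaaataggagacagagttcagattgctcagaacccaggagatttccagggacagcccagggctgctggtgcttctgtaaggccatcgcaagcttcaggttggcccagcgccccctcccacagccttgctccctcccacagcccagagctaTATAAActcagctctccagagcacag
Tnc, chr4:64047016-64047265, minus strand: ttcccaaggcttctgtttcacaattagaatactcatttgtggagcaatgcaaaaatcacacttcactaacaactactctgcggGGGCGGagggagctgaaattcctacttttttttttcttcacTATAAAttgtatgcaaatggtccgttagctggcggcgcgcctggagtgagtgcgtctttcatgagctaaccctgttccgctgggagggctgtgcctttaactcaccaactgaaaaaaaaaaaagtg
Acan, chr7:79052976-79053225, plus strand: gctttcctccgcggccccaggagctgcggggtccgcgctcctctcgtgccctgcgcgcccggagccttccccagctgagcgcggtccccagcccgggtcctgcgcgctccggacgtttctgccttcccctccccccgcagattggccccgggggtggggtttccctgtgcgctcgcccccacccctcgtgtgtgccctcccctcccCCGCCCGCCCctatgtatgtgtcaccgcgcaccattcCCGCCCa
Emilin1, chr5:30913536-30913785, plus strand: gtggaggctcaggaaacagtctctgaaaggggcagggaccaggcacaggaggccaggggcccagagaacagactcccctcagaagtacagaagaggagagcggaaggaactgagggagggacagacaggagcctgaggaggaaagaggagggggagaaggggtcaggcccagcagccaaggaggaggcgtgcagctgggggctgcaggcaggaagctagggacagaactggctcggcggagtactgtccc

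The Postn window shown holds TATAAA starting 26 bases before the start, and the Tnc window shown holds it 126 bases before. Each of these genes has 2 listed starts: the other Postn window holds no TATAAA, and the other Tnc window, which overlaps the one shown, holds it 205 bases before its start. GGGCGG on either strand stands 3 times in the Acan window and once in that of Tnc, while the Emilin1 window holds neither motif. The Emilin1 window precedes the RefSeq start only: it lies inside the gene as GENCODE M21 places it, from chr5:30913402. Over all 32851 windows of the same length, 12.4% hold TATAAA and 32.7% hold GGGCGG; of the 44 member windows, 5 hold TATAAA (in Ogn, Postn, Thbs2 and Tnc) and 28 hold GGGCGG. The median GC content was 59.8% over the 44 member windows and 52.4% over all windows. A core bound by Pbx and Hox proteins together (TGATTNAT, where N is any base) was found in 2.82% of all windows and in 1 member, Fbln1, and a Meis core (TGACAG) in 15.9% and in 1 member, Emilin2. Both strands were searched, copies of GGGCGG may overlap each other as they do in the Acan window, and a match is a description of these letters only.

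By class, the cell surface proteoglycans had the highest summed level in every library but E14.5 epithelium labelled mutant, with 2522 and 2989.6 CPM in E12.5 epithelium, 4185 and 3383 CPM in E12.5 mesenchyme and 1593 and 2149 CPM in E14.5 epithelium. The matricellular and adaptor glycoproteins summed to 1544 and 1737 CPM in E12.5 epithelium, 1957 and 1764 CPM in E12.5 mesenchyme and 1587 and 2734 CPM in E14.5 epithelium. Elastin, the fibrillins and microfibril proteins summed to 873 and 1255 CPM in E12.5 epithelium, 2186 and 2289 CPM in E12.5 mesenchyme and 434 and 1293 CPM in E14.5 epithelium, the widest gap between fractions in proportion. The small leucine-rich proteoglycans stood higher in both E14.5 libraries than in any E12.5 library, with 185 and 228 CPM in E12.5 epithelium, 188 and 252 CPM in E12.5 mesenchyme and 389.8 and 929.6 CPM in E14.5 epithelium. Fibulins, integrin ligands and lecticans with their link protein stayed at or below 678 CPM in every library. All members together took 0.954% and 0.851% of the counts in mesenchyme, 0.621% and 0.721% in E12.5 epithelium and 0.425% and 0.785% in E14.5 epithelium. Per length of exon, Gpc3 was first in every library, at 373 to 1082 CPM per kilobase.

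**Figure D1:**
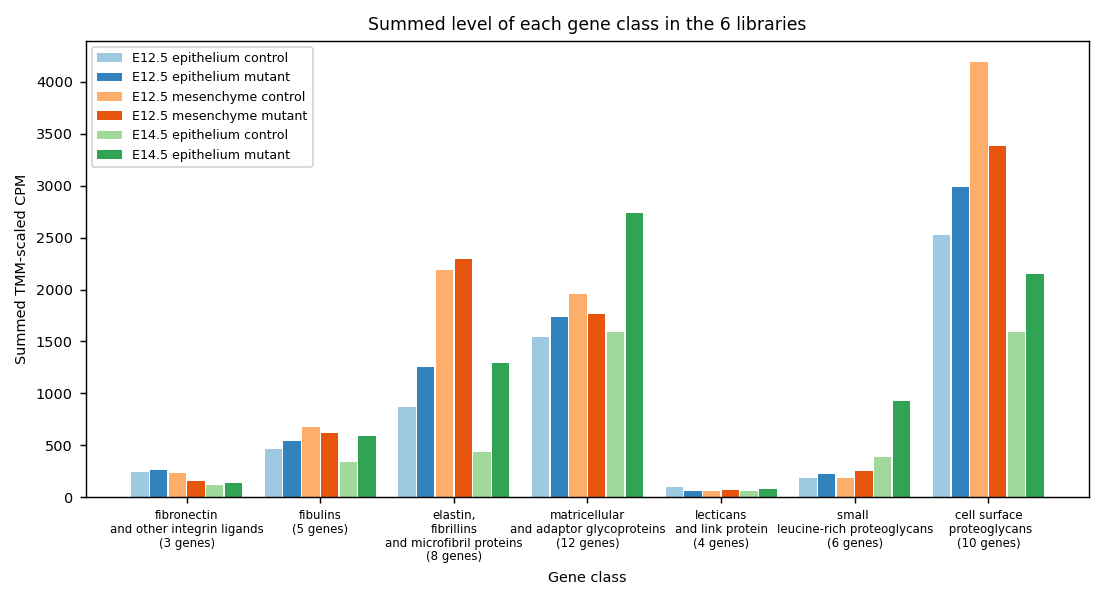
Summed TMM-scaled CPM (vertical axis, from 0) of each of the 7 gene classes (horizontal axis), with 1 bar for each library and no error bars, since each group is 1 library. The elastin and fibrillin class is highest in the mesenchyme bars, the small leucine-rich class in the bar of E14.5 epithelium labelled mutant.

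**Figure D2:**
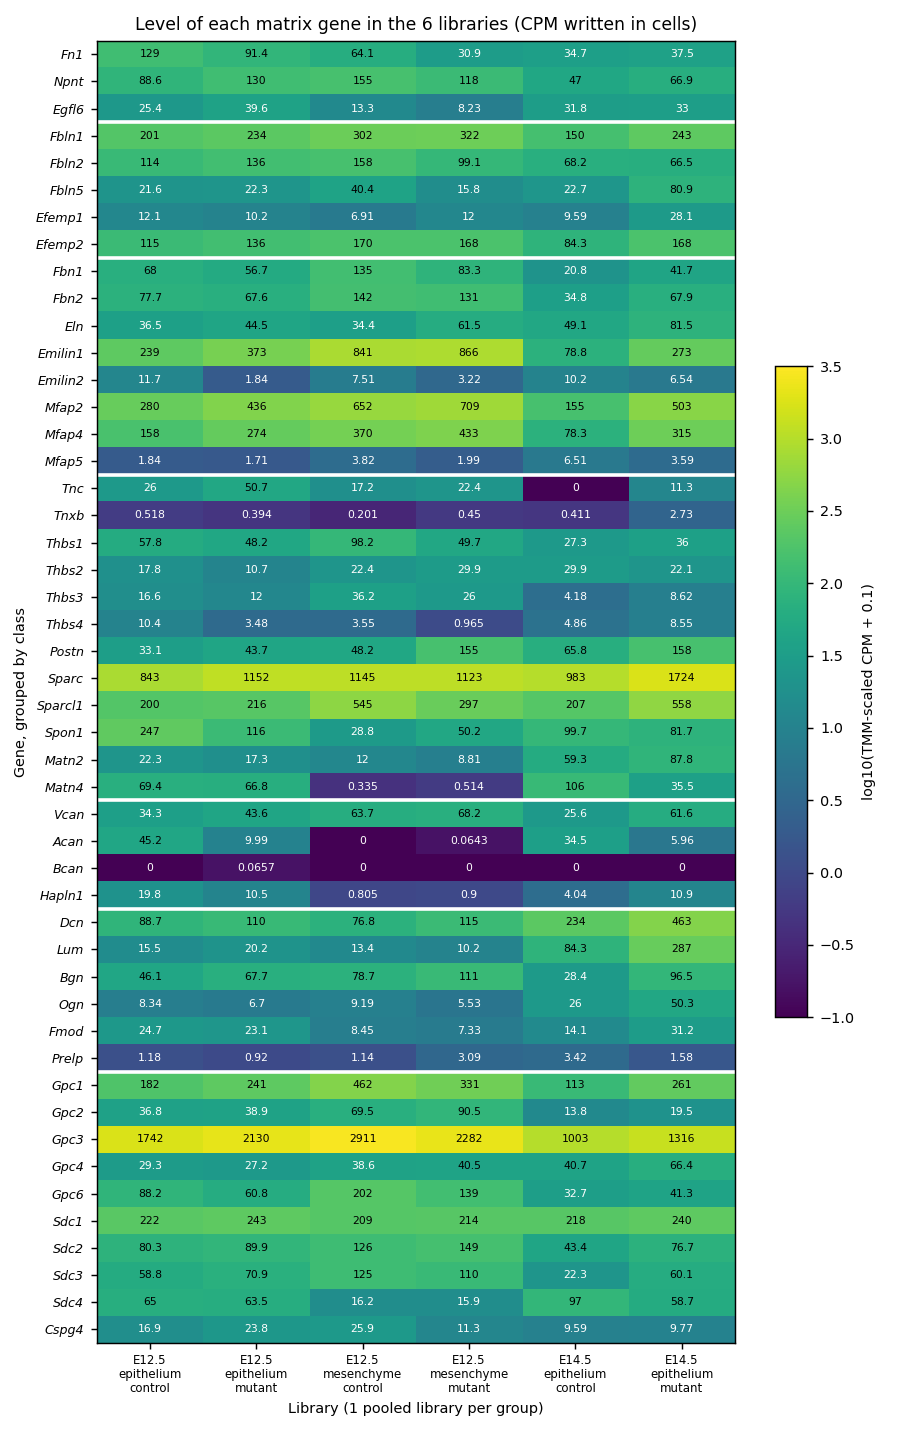
TMM-scaled CPM of the 48 members (rows, grouped by class) in the 6 libraries (columns), written in each cell and coloured by log10(CPM + 0.1). Sparc and Gpc3 are bright in every column, Tnc is dark in control E14.5 epithelium, and Acan is dark in both mesenchyme columns.

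Among the integrin ligands, fibronectin was the one called in a genotype comparison. Fn1, whose fibrils are the template for other matrix, stood at 129 and 91.4 CPM in E12.5 epithelium, 64.1 and 30.9 CPM in E12.5 mesenchyme and 34.7 and 37.5 CPM in E14.5 epithelium. It was highest in the control epithelium at E12.5 and low in mutant mesenchyme and both E14.5 libraries. Mutant mesenchyme held 2.07-fold (1.85 to 2.32) less than control mesenchyme, and control mesenchyme 2.02-fold (1.88 to 2.18) less than control epithelium. Npnt, a ligand of the integrin α8β1 known from the ureteric bud, stood at 88.6 and 130.4 CPM in E12.5 epithelium, 155 and 118 CPM in E12.5 mesenchyme and 47 and 66.9 CPM in E14.5 epithelium. Its highest value was 3.29 times its lowest, and it was called in no comparison. Egfl6, another ligand of that integrin known from mouse skin, ranged from 8.23 to 39.6 CPM and was called lower in mutant mesenchyme than in epithelium labelled mutant, 4.81-fold (3.96 to 5.86).

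Fibulins join elastin, fibrillin and the basement membrane. Fbln1 was the most abundant by CPM, with 201 and 234 CPM in E12.5 epithelium, 302 and 322 CPM in E12.5 mesenchyme and 150.4 and 243 CPM in E14.5 epithelium, highest in mesenchyme and called in no comparison. Fbln2 stood at 114 and 136 CPM in E12.5 epithelium, 158 and 99.1 CPM in E12.5 mesenchyme and 68.2 and 66.5 CPM in E14.5 epithelium, highest in control mesenchyme. Efemp2 (fibulin-4), which brings lysyl oxidase to elastic fibres, stood at 115 and 136 CPM in E12.5 epithelium, 170.0 and 168 CPM in E12.5 mesenchyme and 84.3 and 168 CPM in E14.5 epithelium, and its genotype ratio at E14.5 fell just short of the threshold, at 1.997-fold higher (1.86 to 2.14). The remaining fibulins were Fbln5 and Efemp1. Fbln5, which binds tropoelastin and integrins, had 21.6 and 22.3 CPM in E12.5 epithelium, 40.4 and 15.8 CPM in E12.5 mesenchyme and 22.7 and 80.9 CPM in E14.5 epithelium. It was lowest in mutant mesenchyme and highest in E14.5 epithelium labelled mutant: 2.56-fold lower (2.2 to 2.98) than in control mesenchyme and 3.56-fold higher (3.14 to 4.03) than in the E14.5 control. Efemp1 (fibulin-3) stood at 12.1 and 10.2 CPM in E12.5 epithelium, 6.91 and 12 CPM in E12.5 mesenchyme and 9.59 and 28.1 CPM in E14.5 epithelium. The library labelled mutant at E14.5 was the highest of these, 2.93-fold higher (2.41 to 3.58) than its control.

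The microfibril proteins had the highest class median between fractions, a log2 ratio of mesenchyme to epithelium of 0.99 in control and 0.68 in libraries labelled mutant. Fbn1, which with Fbn2 forms the microfibril backbone and holds latent transforming growth factor β, stood at 135 and 83.3 CPM in E12.5 mesenchyme, against 68 and 56.7 CPM in E12.5 epithelium and 20.8 and 41.7 CPM in E14.5 epithelium. Fbn2, the fibrillin that predominates before birth, had 142 and 131 CPM in E12.5 mesenchyme, against 77.7 and 67.6 CPM in E12.5 epithelium and 34.8 and 67.9 CPM in E14.5 epithelium. Both were highest in control mesenchyme and lowest in control E14.5 epithelium. Fbn1 was 3.28-fold lower (2.89 to 3.72) in control epithelium at E14.5 than at E12.5, and its genotype ratio at E14.5 was just past the threshold, at 2.01-fold higher (1.75 to 2.32). Mfap2, a small protein that binds fibrillin and transforming growth factor β, stood at 652 and 709 CPM in E12.5 mesenchyme, against 280.2 and 436 CPM in E12.5 epithelium and 155 and 503 CPM in E14.5 epithelium. Mfap4, which binds elastin and fibrillin, stood at 369.6 and 433 CPM in E12.5 mesenchyme, against 158 and 274 CPM in E12.5 epithelium and 78.3 and 315 CPM in E14.5 epithelium. Emilin1, an elastic fibre glycoprotein that binds integrins α4β1 and α9β1, had the largest values of the class in mesenchyme, 841 and 866 CPM in E12.5 mesenchyme, against 239 and 373 CPM in E12.5 epithelium and 78.8 and 273 CPM in E14.5 epithelium. These 3 genes had the same order of libraries at the extremes: mutant mesenchyme was highest and control E14.5 epithelium lowest. Control mesenchyme exceeded control epithelium 3.52-fold (3.41 to 3.64) for Emilin1, 2.34-fold (2.24 to 2.44) for Mfap4 and 2.33-fold (2.25 to 2.4) for Mfap2. At E14.5 the library labelled mutant exceeded its control 3.47-fold (3.25 to 3.71) for Emilin1, 3.24-fold (3.09 to 3.4) for Mfap2 and 4.02-fold (3.77 to 4.3) for Mfap4, and in E12.5 mesenchyme 1.03-fold, 1.09-fold and 1.17-fold in the same order.

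Elastin itself was modest: Eln ranged from 34.4 to 81.5 CPM, highest in E14.5 epithelium labelled mutant, and was called in no comparison. Mfap5, a relative of Mfap2, ranged from 1.71 to 6.51 CPM and was called once, 3.54-fold higher (2.42 to 5.28) in control epithelium at E14.5 than at E12.5. Emilin2, a relative of Emilin1, was scarce. It stood at 11.7 and 1.84 CPM in E12.5 epithelium, 7.51 and 3.22 CPM in E12.5 mesenchyme and 10.2 and 6.54 CPM in E14.5 epithelium, lower in the library labelled mutant of every pair. The ratio passed the threshold at E12.5, where it was 6.35-fold lower (4.29 to 9.75) in epithelium and 2.34-fold lower (1.66 to 3.33) in mesenchyme; at E14.5 it was 1.56-fold lower (1.2 to 2.05). The mesenchyme ratio lay inside the middle 95% of all genes whose higher library held 5 to 20 CPM, 0.257 to 2.87 times, and the E12.5 epithelium ratio outside it, 0.32 to 2.79 times.

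Of the measured matricellular genes, Postn had the widest genotype ratio in mesenchyme and Tnc at E14.5. Postn, which cross-links collagen, fibronectin and tenascin and binds αv integrins, stood at 33.1 and 43.7 CPM in E12.5 epithelium, 48.2 and 155 CPM in E12.5 mesenchyme and 65.8 and 158 CPM in E14.5 epithelium. Mutant mesenchyme and E14.5 epithelium labelled mutant had nearly equal, highest levels. In mesenchyme the ratio was 3.22-fold higher (2.97 to 3.51), the only member called higher there; among all genes whose higher library held 100 CPM or more, the middle 95% lay between 0.624 and 1.48 times. At E14.5 it was 2.4-fold higher (2.22 to 2.59). Tnc, an anti-adhesive glycoprotein of branching organs and wounds, stood at 26 and 50.7 CPM in E12.5 epithelium, 17.2 and 22.4 CPM in E12.5 mesenchyme and 0 and 11.3 CPM in E14.5 epithelium. Control epithelium at E14.5 was the one library with no read, and every other library held at least 11.3 CPM. Against a floor of 3 counts in that library, Tnc was at least 55.2-fold higher in the library labelled mutant and at least 127-fold lower at E14.5 than at E12.5 in control epithelium. Tnxb, the tenascin of connective tissue, stayed at or below 2.73 CPM.

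Among thrombospondins, Thbs1 binds Cd36, Cd47 and integrins and activates latent transforming growth factor β. Thbs1 ranged from 27.3 to 98.2 CPM, highest in control mesenchyme. Its genotype ratio there was just short of the threshold, 1.98-fold lower (1.81 to 2.16). Thbs2, known for restraining vessel growth, ranged from 10.7 to 29.9 CPM and was 2.79-fold higher (2.33 to 3.36) in mutant mesenchyme than in epithelium labelled mutant. Thbs3, which forms pentamers, stood at 16.6 and 12 CPM in E12.5 epithelium, 36.2 and 26 CPM in E12.5 mesenchyme and 4.18 and 8.62 CPM in E14.5 epithelium. It was highest in mesenchyme and lowest in the E14.5 libraries, 2.18-fold higher (1.9 to 2.5) in control mesenchyme than control epithelium and 2.06-fold higher (1.5 to 2.86) in E14.5 epithelium labelled mutant than its control. Thbs4, another pentamer, known from tendon and nerve, stood at 10.4 and 3.48 CPM in E12.5 epithelium, 3.55 and 0.965 CPM in E12.5 mesenchyme and 4.86 and 8.55 CPM in E14.5 epithelium. It was lower in the library labelled mutant of both E12.5 pairs and higher in that of the E14.5 pair; the one genotype ratio called was 2.98-fold lower (2.2 to 4.1) in E12.5 epithelium.

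Sparc, a collagen-binding counter-adhesive protein, was the most abundant member by CPM in E14.5 epithelium labelled mutant and came next to Gpc3 in the other libraries, with 843 and 1152 CPM in E12.5 epithelium, 1145 and 1123 CPM in E12.5 mesenchyme and 983 and 1724 CPM in E14.5 epithelium. Its lowest value was 843 CPM, and it was called in no comparison. Its relative Sparcl1 (hevin) stood at 200.2 and 216 CPM in E12.5 epithelium, 545 and 297 CPM in E12.5 mesenchyme and 207 and 558 CPM in E14.5 epithelium. Control mesenchyme and E14.5 epithelium labelled mutant were its highest libraries. It was 2.72-fold higher (2.62 to 2.82) in control mesenchyme than control epithelium and 2.7-fold higher (2.59 to 2.82) in the E14.5 library labelled mutant than its control, while mutant mesenchyme held 1.84-fold lower (1.77 to 1.9) levels than control mesenchyme. Spon1 (F-spondin), first known from the floor plate, was an epithelial-fraction gene, with 247 and 116 CPM in E12.5 epithelium, 28.8 and 50.2 CPM in E12.5 mesenchyme and 99.7 and 81.7 CPM in E14.5 epithelium. It was 8.59-fold lower (7.78 to 9.5) in control mesenchyme and 2.13-fold lower (2.02 to 2.25) in E12.5 epithelium labelled mutant, against the same control epithelium.

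The matrilins, filament-forming adaptors best known from cartilage, differed in pattern: Matn2 by stage and Matn4 by fraction. Matn2 ranged from 8.81 to 87.8 CPM and was higher at E14.5 than at E12.5, 2.65-fold (2.37 to 2.97) in control epithelium and 5.06-fold (4.43 to 5.8) in epithelium labelled mutant. Matn4 stood at 69.4 and 66.8 CPM in E12.5 epithelium, 0.335 and 0.514 CPM in E12.5 mesenchyme and 106 and 35.5 CPM in E14.5 epithelium. It was near 0 in mesenchyme and highest in control E14.5 epithelium, 207-fold lower (88.4 to 638) in control mesenchyme than in control epithelium. At E14.5 it was 2.98-fold lower (2.69 to 3.3) in the library labelled mutant than its control. Matn4 shares 149 exon bases, 2.88% of its exons, with Rbpjl on the opposite strand, an acinar transcription factor gene. Rbpjl stood at 70.3 and 46.4 CPM in E12.5 epithelium, 0 and 0 CPM in E12.5 mesenchyme and 317 and 50.8 CPM in E14.5 epithelium. No source used here says whether counting used strand, so reads of the shared bases cannot be assigned to one of these genes. The other 6 members that share exon bases with a gene on the opposite strand are Fn1, Efemp2, Mfap4, Thbs3, Matn2 and Gpc1. For Thbs3 these are 318 bases (6.59%) shared with Mtx1, which stood at 68.4 to 105 CPM, and for Gpc1 977 bases (18.9%) shared with Ankmy1, which stayed under 1 CPM.

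The hyaluronan-binding proteoglycans divided by fraction, with versican present in mesenchyme and aggrecan and the link protein nearly absent there. Vcan (versican), the lectican of soft embryonic tissue, stood at 34.3 and 43.6 CPM in E12.5 epithelium, 63.7 and 68.2 CPM in E12.5 mesenchyme and 25.6 and 61.6 CPM in E14.5 epithelium. It was highest in mesenchyme and was 2.41-fold higher (2.13 to 2.73) in E14.5 epithelium labelled mutant than in its control. Acan (aggrecan), the lectican of cartilage and of nets around neurons, stood at 45.2 and 9.99 CPM in E12.5 epithelium, 0 and 0.0643 CPM in E12.5 mesenchyme and 34.5 and 5.96 CPM in E14.5 epithelium. It had 0 and 1 read in the mesenchyme libraries and was lower in the library labelled mutant of both epithelial pairs. The ratios were 4.53-fold lower (3.81 to 5.41) at E12.5 and 5.79-fold lower (4.58 to 7.4) at E14.5, and these comparisons share no library. Hapln1, the link protein that fixes lecticans to hyaluronan, had 19.8 and 10.5 CPM in E12.5 epithelium, 0.805 and 0.90 CPM in E12.5 mesenchyme and 4.04 and 10.9 CPM in E14.5 epithelium. It too was under 1 CPM in mesenchyme, and at E14.5 it was 2.7-fold higher (1.99 to 3.71) in the library labelled mutant. Bcan, the brain lectican, had 1 read over all 6 libraries.

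Beside Acan, Hapln1 and Matn4, markers of cartilage and nerve are given, as these proteins are best known there. The 12 cartilage markers summed to 641 and 466 CPM in E12.5 epithelium, 493 and 368 CPM in E12.5 mesenchyme and 382 and 370.5 CPM in E14.5 epithelium. Col9a2 held 328 and 204 CPM of the mesenchyme sums. In control mesenchyme against control epithelium, 4 of 8 measured were called lower (Col2a1, Col9a1, Col9a3 and Col11a2) and 1 higher (Col9a2). The same 4 were called lower and 0 higher among libraries labelled mutant. Col2a1, the cartilage collagen, stood at 245 and 139 CPM in E12.5 epithelium, 13 and 29.7 CPM in E12.5 mesenchyme and 86.7 and 48.8 CPM in E14.5 epithelium, and Matn1, a matrilin of cartilage, had no read in any library. Of the 12 markers 8 were measured in E12.5 epithelium, where 2 were called lower in the library labelled mutant and 0 higher, and 0 of 8 were called at E14.5. The 12 neural crest, glial and neuronal markers summed to 182 and 142 CPM in E12.5 epithelium, 24.4 and 55.9 CPM in E12.5 mesenchyme and 190.4 and 291 CPM in E14.5 epithelium, and 6 of 10 measured were called higher in E14.5 epithelium labelled mutant than in its control. The part of such cells in these members' values was not tested.

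The small leucine-rich proteoglycans had the highest class median between stages, a log2 ratio of E14.5 to E12.5 of 1.40 in control epithelium and 2.08 in epithelium labelled mutant. Dcn (decorin), which binds collagen fibrils and transforming growth factor β, stood at 88.7 and 109.6 CPM in E12.5 epithelium, 76.8 and 115 CPM in E12.5 mesenchyme and 234 and 463 CPM in E14.5 epithelium. Lum (lumican), which limits the width of collagen fibrils, stood at 15.5 and 20.2 CPM in E12.5 epithelium, 13.4 and 10.2 CPM in E12.5 mesenchyme and 84.3 and 287 CPM in E14.5 epithelium. Both E14.5 libraries were above all 4 E12.5 libraries for each gene. In control epithelium the excess at E14.5 was 5.44-fold (4.81 to 6.16) for Lum and 2.63-fold (2.49 to 2.79) for Dcn, and in epithelium labelled mutant 14.2-fold (12.7 to 16.1) and 4.22-fold (4.0 to 4.46). Ogn (osteoglycin), another fibril regulator, ranged from 5.53 to 50.3 CPM, and its stage ratios were 3.12-fold higher (2.61 to 3.75) and 7.5-fold higher (6.09 to 9.33). Between genotypes at E14.5, Lum was 3.41-fold higher (3.2 to 3.64) in the library labelled mutant, while Dcn was just short of the threshold at 1.98-fold higher (1.9 to 2.07).

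Bgn (biglycan), a relative of decorin, stood at 46.1 and 67.7 CPM in E12.5 epithelium, 78.7 and 111 CPM in E12.5 mesenchyme and 28.4 and 96.5 CPM in E14.5 epithelium. Mutant mesenchyme was highest and control E14.5 epithelium lowest, and the E14.5 genotype ratio was 3.4-fold higher (3.05 to 3.81). Fmod (fibromodulin), a fibril regulator of tendon, stood at 24.7 and 23.1 CPM in E12.5 epithelium, 8.45 and 7.33 CPM in E12.5 mesenchyme and 14.1 and 31.2 CPM in E14.5 epithelium. It was lower in mesenchyme in both genotypes, 2.93-fold (2.4 to 3.58) and 3.15-fold (2.54 to 3.92), and 2.21-fold higher (1.87 to 2.63) in the E14.5 library labelled mutant than its control. Prelp ranged from 0.92 to 3.42 CPM. Several of these genes lie in clusters of relatives on the mm10 assembly: Dcn at chr10:97479609-97518143 and Lum at chr10:97565128-97572703 next to Kera and Epyc, and Ogn at chr13:49608046-49624501 next to Ecm2, Aspn and Omd. Kera and Epyc stayed under 1 CPM in every library. Aspn (asporin), which binds collagen, stood at 4.76 and 0.854 CPM in E12.5 epithelium, 2.08 and 0 CPM in E12.5 mesenchyme and 28.1 and 68.7 CPM in E14.5 epithelium, 80.4-fold higher (46.8 to 152) in epithelium labelled mutant at E14.5 than at E12.5, whereas Omd stayed under 1 CPM.

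Glypicans are held to the membrane by a lipid anchor and carry heparan sulfate. Gpc3, which binds Wnt and Hedgehog ligands and whose loss causes an overgrowth syndrome in humans, stood at 2911 and 2282 CPM in E12.5 mesenchyme, against 1742 and 2130.1 CPM in E12.5 epithelium and 1003 and 1316 CPM in E14.5 epithelium. It was the most abundant member by CPM in every library but one and was called in no comparison. Gpc1, a fibroblast growth factor co-receptor, stood at 462 and 331 CPM in E12.5 mesenchyme, against 182 and 241 CPM in E12.5 epithelium and 113 and 261 CPM in E14.5 epithelium. It was 2.54-fold higher (2.44 to 2.64) in control mesenchyme than control epithelium and 2.31-fold higher (2.18 to 2.45) in E14.5 epithelium labelled mutant than its control. Gpc6, known for its role in growth plate signalling, stood at 202 and 139 CPM in E12.5 mesenchyme, against 88.2 and 60.8 CPM in E12.5 epithelium and 32.7 and 41.3 CPM in E14.5 epithelium. Its excess in mesenchyme was 2.29-fold (2.16 to 2.43) in control and 2.28-fold (2.11 to 2.47) in libraries labelled mutant. Gpc2, the glypican of developing neurons, ranged from 13.8 to 90.5 CPM, with its highest value in mutant mesenchyme, and Gpc4 from 27.2 to 66.4 CPM, with its highest in E14.5 epithelium labelled mutant. Of the glypicans, Gpc1 alone was called between genotypes.

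Sdc1, the syndecan of epithelia, was the most even of the abundant members, with 222 and 243 CPM in E12.5 epithelium, 209 and 214 CPM in E12.5 mesenchyme and 218 and 240.1 CPM in E14.5 epithelium, and was called in no comparison. Sdc2, which works with fibronectin receptors, stood at 80.3 and 89.9 CPM in E12.5 epithelium, 126 and 149 CPM in E12.5 mesenchyme and 43.4 and 76.7 CPM in E14.5 epithelium, and it too was called in none. Sdc3, known from nerve and muscle, stood at 58.8 and 70.9 CPM in E12.5 epithelium, 125 and 110.0 CPM in E12.5 mesenchyme and 22.3 and 60.1 CPM in E14.5 epithelium. It was 2.12-fold higher (1.97 to 2.28) in control mesenchyme than control epithelium and 2.69-fold higher (2.37 to 3.07) in the E14.5 library labelled mutant than its control. Sdc4, a focal adhesion co-receptor for fibronectin, ranged from 15.9 to 97 CPM and was the syndecan of the epithelial fraction. It was lower in mesenchyme by 4.01-fold (3.49 to 4.61) in control and 4.0-fold (3.47 to 4.61) in libraries labelled mutant. Cspg4 (NG2), a transmembrane chondroitin sulfate proteoglycan of pericytes, stood at 16.9 and 23.8 CPM in E12.5 epithelium, 25.9 and 11.3 CPM in E12.5 mesenchyme and 9.59 and 9.77 CPM in E14.5 epithelium. It was lowest in the E14.5 libraries and 2.29-fold lower (1.91 to 2.75) in mutant than in control mesenchyme.

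Mesenchyme and epithelium at E12.5 were compared to see which of these genes belong to which fraction. In control libraries the members called higher in mesenchyme were the microfibril proteins Emilin1, Mfap2 and Mfap4, the glypicans Gpc1 and Gpc6, Sdc3, Thbs3 and Sparcl1. Those called lower were Acan, Matn4, Hapln1, Spon1, Sdc4, Fmod, Thbs4 and Fn1. The median log2 ratio of the 44 measured members was 0.51, and 0.03 over all measured genes. Emilin1, Thbs3 and Gpc6 were called higher in both genotypes, which is 3 of the 8 called in control and 3 of the 6 called in libraries labelled mutant. Acan, Matn4, Hapln1, Spon1, Sdc4, Fmod and Fn1 were called lower in both, which is 7 of 8 and 7 of 10. Among libraries labelled mutant, Postn (3.56-fold, 3.26 to 3.88), Thbs2 and Gpc2 were called higher and Egfl6, Tnc (2.26-fold, 1.99 to 2.57) and Cspg4 (2.11-fold, 1.76 to 2.54) lower without being called in control libraries; whether the fractions differed more in one genotype was not tested. Leukocyte, endothelial and neural markers were lower in mesenchyme too: 13 of 13, 12 of 14 and 8 of 10 measured markers were called lower in the control comparison, with Cdh5, Tie1 and Sox10 at no read there. Their part in the members' ratios was not tested.

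**Figure D3:**
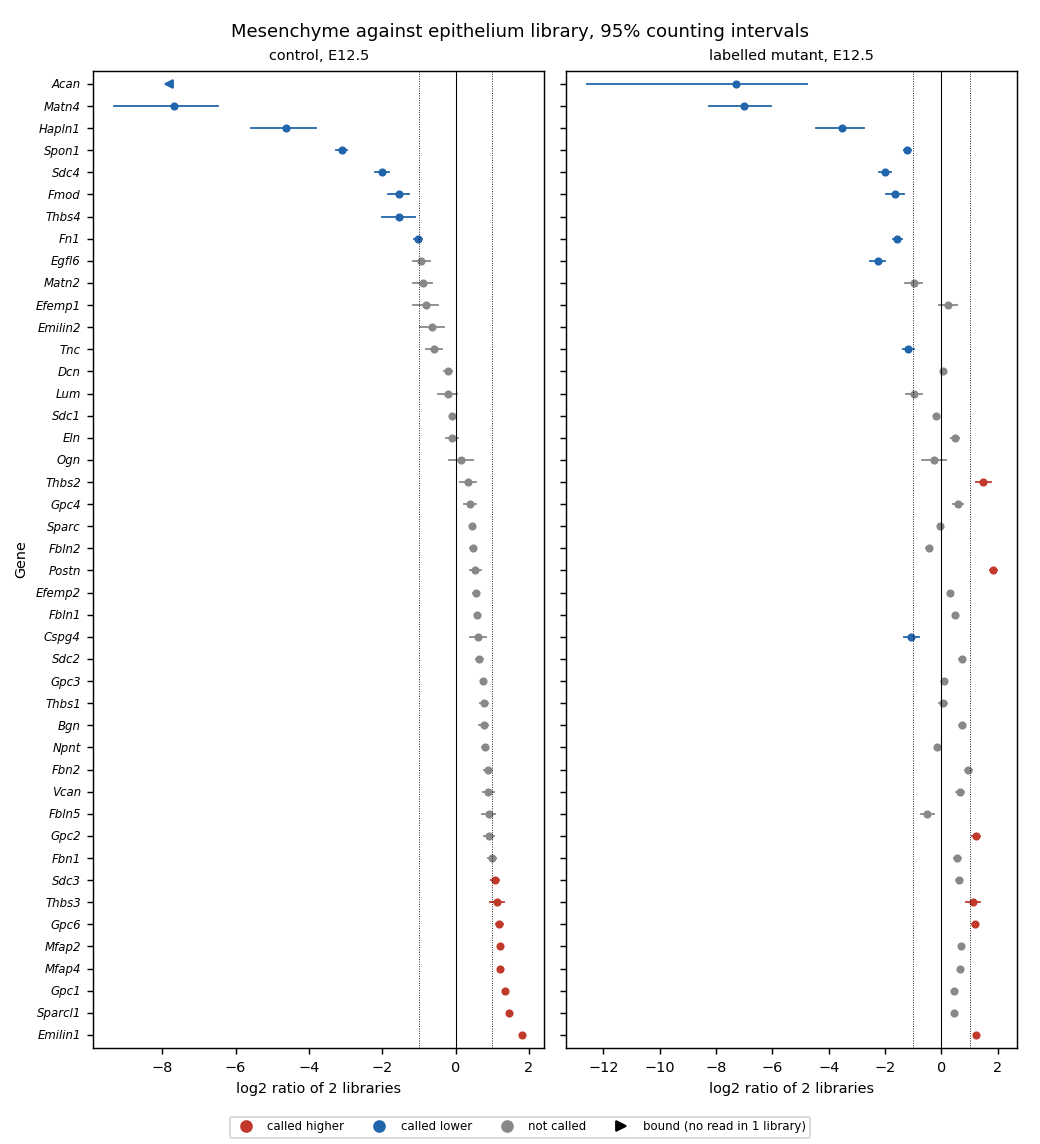
Log2 ratio of mesenchyme to epithelium at E12.5 (horizontal axis) for each measured member (vertical axis), in control libraries (left) and libraries labelled mutant (right), with bars for 95% counting intervals and dotted lines at 2-fold. Acan, Matn4 and Hapln1 lie farthest to the left in both panels, and Emilin1 and Postn farthest to the right in the left and right panel.

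In E12.5 mesenchyme, the fraction in which Nkx2-5 is expressed, the mutant differed from the control in few of these genes. Postn was called higher, and Fn1, Fbln5, Emilin2 and Cspg4 were called lower. The median log2 ratio of the 40 measured members was -0.07, and -0.01 over all measured genes. Among general mesenchymal markers 1 of 25 measured was called lower and 0 higher, with a median of -0.22. Relative to that median, 4 members were called higher and 2 lower, and Fn1 and Cspg4 were no longer called. Beside Cspg4, 4 of 9 measured smooth muscle and pericyte markers were called lower, with a sum of 758 CPM in control and 481 CPM in mutant mesenchyme, and none of the 13 markers was at 0. Leukocyte markers summed to 80.6 and 39.8 CPM, and mesothelial markers to 199 and 124 CPM. All 3 measured erythroid markers were called lower, among them Hbb-y with 46.2 and 0.643 CPM, whereas the endothelial markers Pecam1 and Plvap, 2 of 5 measured, were called higher. The part of these cells in the 5 called members was not tested. In E12.5 epithelium the members called lower in the library labelled mutant were Emilin2, Acan, Thbs4 and Spon1. The median over 44 members was 0.12, and 0.000428 over all measured genes. In this pair 4 of 25 measured general mesenchymal markers were called higher in the library labelled mutant and 0 lower, with a median of 0.32. Smooth muscle and pericyte markers gave 4 higher calls and 1 lower among 11 measured, with sums of 391 and 549 CPM. All 13 leukocyte markers were measured and lower, 1 of them called, with sums of 412 and 267 CPM. Relative to the median of general mesenchymal markers, 6 members were called lower and 0 higher, and the part of these cells in the calls was not tested.

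In E14.5 epithelium the members called higher in the library labelled mutant came from 6 of the 7 classes: 4 of 8 microfibril genes, 4 of 11 matricellular genes, 3 of 5 small leucine-rich proteoglycans, 2 of 5 fibulins, 2 of 3 lecticans and link protein, and 2 of 10 cell surface proteoglycans. No integrin ligand was called. Acan and Matn4 were called lower. Of all measured genes, 9.64% were called higher and 6.4% lower. The median log2 ratio over the 45 measured members was 0.81, and -0.03 over all measured genes. General mesenchymal markers were higher as well: 20 of 25 measured were called higher, none was at 0, and their median log2 ratio was 1.37. Relative to that median, 1 member (Tnc) was called higher and 13 lower, and the ratios of Fbn1, Thbs3, Postn, Vcan, Fmod and Gpc1 changed sign. That scaling lowers every gene's log2 ratio by 1.37, and no share over all genes is given on it. Epithelial markers were lower, with 10 of 20 called and a median of -0.99, and smooth muscle and pericyte markers were higher, with 8 of 11 called and sums of 229 and 939.6 CPM. The pools of this pair differed widely in all genes: the middle 95% lay between 0.408 and 3.05 times at 20 to 100 CPM in the higher library and between 0.403 and 2.48 times at 100 CPM or more. At 5 to 20 CPM, the range of Thbs3 and Hapln1, it lay between 0.232 and 6.18 times. The share of the members' ratios that goes with more mesenchymal RNA in this pool was not tested beyond that scaling.

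**Figure D4:**
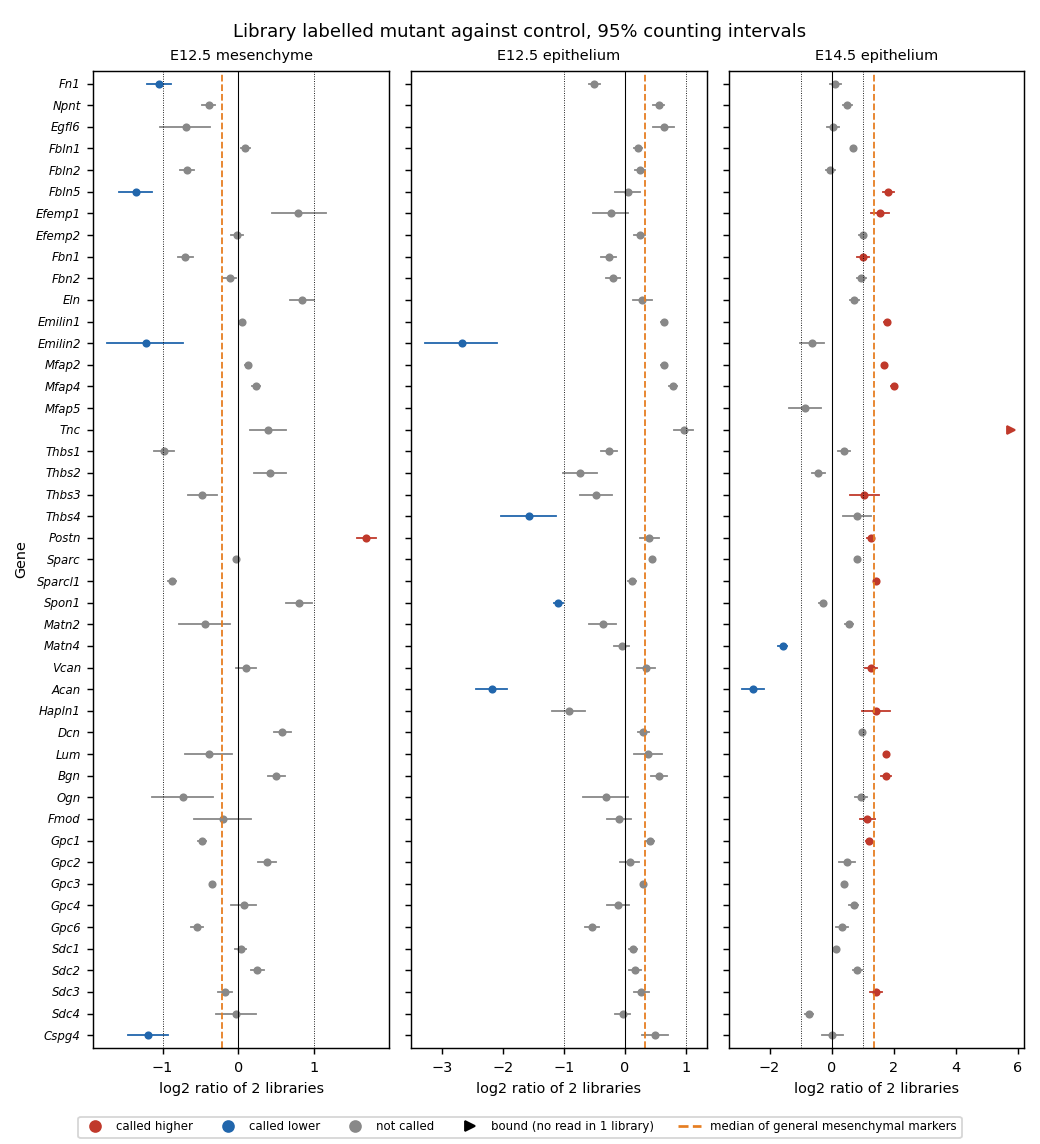
Log2 ratio of the library labelled mutant to control (horizontal axis) for each measured member (vertical axis) in E12.5 mesenchyme, E12.5 epithelium and E14.5 epithelium, with 95% counting intervals, dotted lines at 2-fold and the median of the general mesenchymal markers as a dashed line. Most members lie right of 0 in the E14.5 panel but left of the dashed line, Postn stands alone on the right in mesenchyme, and Acan lies far left in both epithelial panels.

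Between E12.5 and E14.5 the epithelial libraries of the 2 genotypes were compared separately, and these comparisons share no library with each other but share libraries with those above. Matn2, Dcn, Lum and Ogn were called higher at E14.5 in both, which is 4 of the 5 called in control and 4 of the 12 called in libraries labelled mutant. Fn1 and Tnc were called lower in both: Fn1 by 3.73-fold (3.39 to 4.11) in control and 2.44-fold (2.2 to 2.7) in libraries labelled mutant, and Tnc by 4.46-fold (3.76 to 5.33) in the latter. In control epithelium 12 further members were called lower, among them Hapln1 (4.91-fold, 3.73 to 6.56), Thbs3 (3.98-fold, 3.02 to 5.31) and Emilin1 (3.03-fold, 2.84 to 3.24). In libraries labelled mutant 8 further members were called higher, among them Fbln5 (3.62-fold, 3.2 to 4.1), Postn (3.61-fold, 3.31 to 3.95) and Emilin2 (3.55-fold, 2.3 to 5.64). Thbs4 was called in both, lower in control (2.13-fold, 1.62 to 2.82) and higher in libraries labelled mutant (2.45-fold, 1.76 to 3.46). The median log2 ratio of the members was -0.69 in control and 0.06 in libraries labelled mutant, beside -0.76 and 0.28 for general mesenchymal markers and -0.03 and -0.00278 over all measured genes. Relative to the mesenchymal markers, 12 members were higher and 4 lower in control epithelium, and 11 higher and 8 lower in epithelium labelled mutant. That scaling moves every gene of a pair alike, and no share over all genes is given on it.

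**Figure D5:**
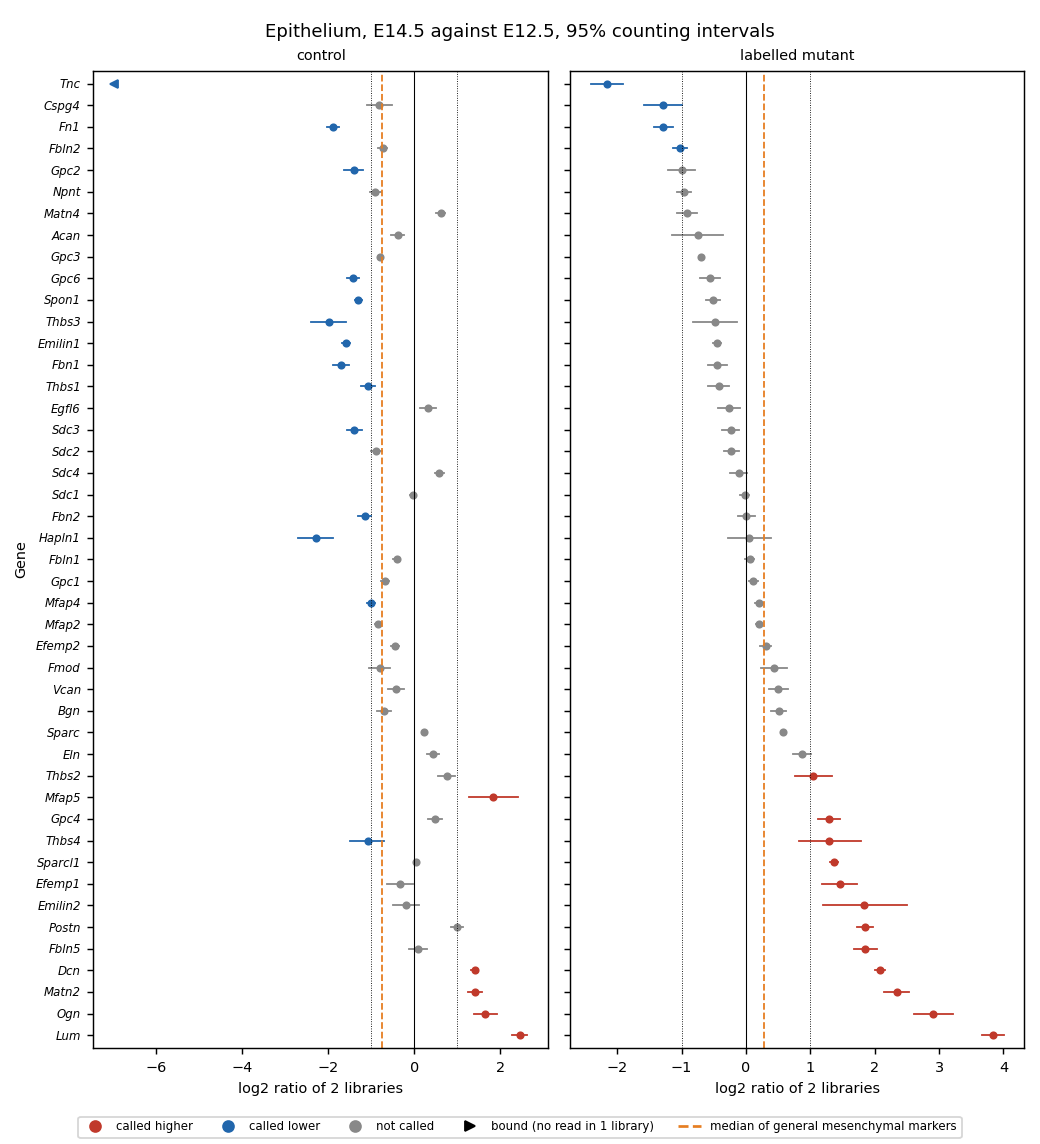
Log2 ratio of E14.5 to E12.5 epithelium (horizontal axis) for each measured member (vertical axis) in control libraries (left) and libraries labelled mutant (right), with 95% counting intervals, dotted lines at 2-fold and the median of the general mesenchymal markers as a dashed line. Lum and Ogn lie far to the right in both panels, Tnc far to the left in both, and most control members lie left of 0.

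Relatives of these proteins, the enzymes that build their chains and their receptors were counted in the same way. Of 45 other members of the same families, 23 were measured at E14.5, with 7 called higher in the library labelled mutant and 1 lower, against 9.64% and 6.4% of all measured genes. Relative to the median of general mesenchymal markers, 2 were called higher and 10 lower, with no share over all genes given on that scale. Tgfbi, a relative of periostin, was 5.86-fold higher (5.5 to 6.25) there, from 77.7 to 456 CPM. Frem1, a basement membrane protein of the Fraser complex, was 14.1-fold higher (8.18 to 26.2), from 0.959 CPM in control to 13.5 CPM. Smoc2, a Sparc relative, was 2.96-fold higher (2.81 to 3.1) in that library, 1.15-fold relative to those markers and so not called on that scale, and 2.95-fold lower (2.83 to 3.06) in mutant than in control mesenchyme (652 and 221 CPM). Smoc1 stood at 158 and 109.9 CPM in E12.5 epithelium, 2.95 and 8.62 CPM in E12.5 mesenchyme and 169.5 and 68.2 CPM in E14.5 epithelium, 53.7-fold lower (39.9 to 74) in control mesenchyme than control epithelium. Between genotypes it was 2.92-fold higher (2.06 to 4.2) in mutant mesenchyme, and it was the relative called lower at E14.5. In E12.5 mesenchyme 1 of 18 measured relatives was called higher and 1 lower, against 1.96% and 3.5% of all measured genes. In E12.5 epithelium 0 of 23 were called higher and 2 lower, against 1.79% and 3.21%.

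Of 50 genes for making and modifying glycosaminoglycan chains, 38 were measured at E14.5, with 10 called higher in the library labelled mutant and 0 lower (median log2 ratio 0.38), against 9.64% and 6.4% of all measured genes. Relative to the median of general mesenchymal markers, 1 was called higher and 19 lower (median log2 ratio -0.99). That scaling lowers the log2 ratio of every gene by 1.37, from a median of -0.03 over all measured genes. No share over all genes is given on that scale. Hs3st3b1, a heparan sulfate sulfotransferase, was 35.6-fold higher (13.6 to 133), from 0.274 CPM in control to 9.77 CPM, and 13.8-fold relative to those markers. Dsel, which makes dermatan sulfate, was 3.45-fold higher (2.67 to 4.51), 1.34-fold relative to those markers and so not called on that scale. In E12.5 mesenchyme 1 of 37 was called higher and 3 lower, against 1.96% and 3.5% of all measured genes. Hs3st2 was 3.93-fold higher (2.64 to 6.02) in the mutant, and Chsy3, a chondroitin synthase, 4.35-fold lower (3.09 to 6.24). In E12.5 epithelium 0 of 39 were higher and 2 lower, against 1.79% and 3.21%. The 2 were Csgalnact1, which starts chondroitin chains (lower by 4.66-fold, 2.96 to 7.67), and Papss2, which supplies sulfate donors (lower by 2.41-fold, 1.88 to 3.12). Papss2 was 5.23-fold higher (4.12 to 6.71) at E14.5 than at E12.5 in epithelium labelled mutant. Of 16 receptors, 14 were measured at E14.5, with 5 called higher and 1 lower, against 9.64% and 6.4% of all measured genes. Relative to general mesenchymal markers, 0 were called higher and 6 lower, again without a share over all genes. Itga5, of the fibronectin receptor, was 2.62-fold higher (2.36 to 2.91) and the collagen receptor Ddr2 2.86-fold higher (2.54 to 3.21). On the scale relative to those markers they were 1.02-fold and 1.11-fold higher and neither was called. Itgb6, of an epithelial integrin that binds fibronectin and tenascin C, was lower in the library labelled mutant of both epithelial pairs, 3.82-fold (2.75 to 5.42) at E12.5 and 3.36-fold (2.52 to 4.54) at E14.5, and had no read in either mesenchyme library. In E12.5 mesenchyme Cd44, a hyaluronan receptor, was 3.71-fold higher (2.48 to 5.7) in the mutant, the 1 of 11 measured receptors called there. Of all measured genes in that pair, 1.96% were called higher and 3.5% lower.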

How the data were processed

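Gene counts came from 6 RNA sequencing libraries, 1 for each group. The authors deposited 1 table of whole-number counts per gene symbol for each library, not normalised, and the table names call the counts deduplicated. Of tools, the submitters' processing notes list Cufflinks and Cuffdiff, both 2.2.1, with mm10 as assembly. No source used here gives the program that aligned or counted reads, the gene models or any use of strand. The 5 summary lines of each table stayed out of library totals: reads on no gene (4.69% to 8.84%), reads with several alignments (13.7% to 20.1%) and ambiguous reads (1.53% to 1.72%). The table of control E12.5 epithelium is named in another form than the others, and any difference in its handling cannot be told apart from its group.

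Counts were scaled with TMM factors (0.941 to 1.05) from edgeR 4.0.16 in R 4.3.3, and ratios were computed in Python 3.11.15 with scipy 1.17.1. Since each group is 1 library, no model was fitted, and ratios carry exact conditional binomial (Clopper-Pearson) intervals. No molecular identifiers are mentioned, and reads of PCR copies are not independent, so neither intervals nor floors hold more than counting error. A library with no read of a gene was given a floor of 3 counts. The calls were tested on simulated counts: for the genotype ratio at E14.5, over 11819 genes, they found 100% of genes shifted by a log2 value of 1.5, 100% of those shifted by 3 and 0.00861% of unshifted genes. The simulated counts varied by Poisson counting error only, and shifts were placed in genes with a mean of 10 CPM or more. They hold no difference between pools, so these shares give no rate of false calls in the data.

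The members and lists were chosen with earlier results of these data known. Members are given in every library where they were called between genotypes or reached 100 CPM in a library, and other members by their range. From each list of relatives, enzymes and receptors, at most 4 called genes with the largest ratio at E14.5 and up to 2 in each other comparison could be named. Aliases in RefSeq matched 2 marker genes, and Muc16 was not matched. Positions and exon lengths came from GENCODE M21 on the same assembly. An allele of the mutant genotype is not reported here. Alternatives were DESeq2 1.42.0 size factors, plain CPM, thresholds of 1.5-fold and 4-fold, a filter of 1 CPM, 20 CPM or no filter, and ratios relative to general mesenchymal markers.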

Additional observations from a re-analysis of the deposited data

Results flagged for a closer look

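Fbln5 was called in opposite directions in comparisons that share no library: 3.56-fold higher in E14.5 epithelium labelled mutant than in its control, and 2.56-fold lower in mutant than in control mesenchyme at E12.5. Thbs4 was called in opposite directions between stages: 2.45-fold higher at E14.5 than at E12.5 in epithelium labelled mutant, and 2.13-fold lower in control epithelium. With 1 library per group, neither difference between ratios was tested. General mesenchymal markers moved by a median log2 ratio of 1.37 in the first of these comparisons and -0.22 in the second, and their part in the Fbln5 ratios was not tested.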

How the results depend on the processing

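With DESeq2 size factors or plain CPM, the 14 counts of called members stayed within 1.5 times. Shares over all genes are given at the main settings only, so counts at other settings have no background beside them. Of 95 single ratios called, 2 dropped below 2-fold with DESeq2 size factors: Fbn1 between genotypes at E14.5 (log2 0.97) and Mfap4 between control stages (log2 -0.98). With a filter of 1 CPM or none, 2 members were called higher in mutant mesenchyme, and with a filter of 20 CPM, 2 were called lower in E12.5 epithelium labelled mutant. At 1.5-fold, higher and lower calls between genotypes numbered 4 and 10 in E12.5 mesenchyme and 27 and 5 in E14.5 epithelium, with 5 higher in E12.5 epithelium. Between fractions they were 20 and 13 in control and 13 higher in mutant libraries, and between stages 8 and 23 in control and 9 lower in libraries labelled mutant. At 4-fold, they numbered 0 and 0 in mesenchyme, 2 lower in E12.5 epithelium and 2 and 1 at E14.5. Between fractions they were then 0 and 5 in control and 0 and 4 in mutant libraries, and between stages 1 and 2 in control and 4 and 1 in libraries labelled mutant. Relative to the median of general mesenchymal markers, higher and lower calls were 4 and 2 in mesenchyme, 0 and 6 in E12.5 epithelium and 1 and 13 at E14.5. Between stages they were 12 and 4 in control and 11 and 8 in libraries labelled mutant. Of 63 single ratios so scaled, 34 kept their call, 23 lost it and 6 changed sign, all at E14.5 between genotypes: Fbn1 (-0.36), Thbs3 (-0.32), Fmod (-0.22), Gpc1 (-0.16), Postn (-0.10) and Vcan (-0.10). This scaling lowers every E14.5 genotype ratio by 1.37 by construction, and the cause was not tested for the other alternatives. No paired analysis was possible because each group is 1 library. No replicate could be left out. The middle 95% of all genes between the mesenchyme libraries lay between 0.554 and 1.63 times at 20 to 100 CPM, wider than counting intervals.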

Other observations

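Tnc had no read in control E14.5 epithelium and at least 10 CPM in each of the other 5 libraries. No gene had no read in 1 of those other 5 libraries with at least 10 CPM in all the rest.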
